A study of Mus musculus with 12 samples.

Results

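The 79 genes described here encode proteins of the cytosolic ribosome in mouse embryonic stem cells. They are the rows of the count table whose symbol is Rps or Rpl followed by a number and at most a short suffix, together with Rplp0, Rplp1, Rplp2 and Rpsa. Of 20529 genes listed, 79 met this rule, 33 named for the small subunit and 46 for the large subunit. In the reference annotation 77 of them are protein-coding, and Rps3a2 and Rps3a3 are annotated as processed pseudogenes. All 79 were among the 20486 genes tested, and the lowest count of any of them in any library was 974.

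The cells were of the 129S6/SvEvTac background and carried the reporter GFP_5xT71BS and stably transfected FLAG-Cas9, and they were grown on gelatin in serum with LIF. Total RNA was sequenced from 12 libraries in 4 groups of 3 wells. The Cas9 control and Cas9 Trim71-/- groups were labelled for Cas9 overexpression alone, and the Tnrc6a control and Tnrc6a Trim71-/- groups for Tnrc6a overexpression. Trim71 binds mRNAs and represses them, and Tnrc6a, a GW182 protein, is the scaffold that links Argonaute proteins to deadenylases. The title of the series places GW182 proteins where several RNA-silencing routes meet. Nothing in the labels gives more than 1 cell line per group, so an effect of the genotype or of the transgene and a difference between cell lines cannot be told apart, and p-values measure the spread between wells.

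A ribosome is built from a small subunit, which reads the mRNA, and a large subunit, which forms peptide bonds, and each holds a single copy of nearly every ribosomal protein, so the cell makes these proteins in matched amounts. Their mRNAs are short, abundant and stable, and most begin with a cytosine followed by a run of pyrimidines, the 5' terminal oligopyrimidine or TOP motif. Through this motif the mTOR pathway and the RNA-binding protein Larp1 control how strongly the mRNAs are translated and how long they are kept. Embryonic stem cells divide fast, and ribosome production is a large part of their synthetic work.

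Totals ran from 20758151 to 31552915 counts per library. Tnrc6a RNA lay between 131.1 and 152 scaled counts (CPM, reads per 1e+06 reads, scaled by trimmed-mean factors) in the 6 Cas9 libraries and between 3197 and 3704 CPM in the 6 Tnrc6a libraries. Trim71 RNA was still present in the libraries labelled Trim71-/-, at 233.2 to 291.2 CPM against 254.5 to 317.2 CPM in the control libraries, a log2 fold change of -0.15 with Cas9 and -0.14 with Tnrc6a. A summed count per gene need not show an edit, so it does not check that label. Cas9 Trim71-/- replicate 3 stood apart from the other 2 wells of its group, with a chi-square per gene of 7.764 and 5.984 against them, while they differed from each other by 2.905. The summed level of 8 embryonic stem cell markers was 5621 to 5684 CPM in Cas9 control, 6535 to 6620 in Cas9 Trim71-/-, 3314 to 3351 in Tnrc6a control and 4861 to 4957 in Tnrc6a Trim71-/- libraries. For 9 libraries the note on input RNA describes cells that differ from the title, with HA-AVI-Tnrc6a in all 9 and Ago2-/- or Upf1-/- in 6, and the groups rest on titles and the overexpression tag.

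Levels per length differed widely among the 79 genes. In the Cas9 control group the median deposited RPKM (reads per kilobase of gene and per 1e+06 reads) was 333.5, and the highest mean was 47.73 times the lowest. Rplp1, an acidic protein of the stalk that recruits elongation factors, was highest at 2033 ± 143 RPKM (SD, n = 3). Rpl8 at 1272 ± 30.6 RPKM and Rpl4 at 1256 ± 15.8 RPKM followed, both proteins of the large-subunit core, and they did not differ from each other beyond their spread. Rps15, a protein of the small-subunit head near the decoding site, stood at 1151 ± 50.9 RPKM. Rplp0, the base of the stalk, was at 800.6 ± 16 RPKM. As CPM, which takes no account of length, the mean of Rplp1 in this group was 1015. That was below Rpl4 at 2524, Rpl8 at 1731 and Rplp0 at 1330 CPM.

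At the low end, Rpl30 stood at 42.59 ± 1.25 RPKM, Rpl35a at 49.33 ± 2.29, Rpl29 at 50.28 ± 2.91, Rpl34 at 52.13 ± 1.87, Rps15a at 57.57 ± 0.0485 and Rpl21 at 95.4 ± 4.02. Rpl35a, Rpl29 and Rpl34 overlapped within their spread. The low and the high values, and so the range between them, are set in part by the deposited gene length, which can cover more than 1 transcript. It was 6270 bases for Rps15a, whose longest coding sequence has 390 bases, and 499 bases for Rplp1, where that sequence has 342. Differences between groups do not depend on that length.

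**Figure D1:**
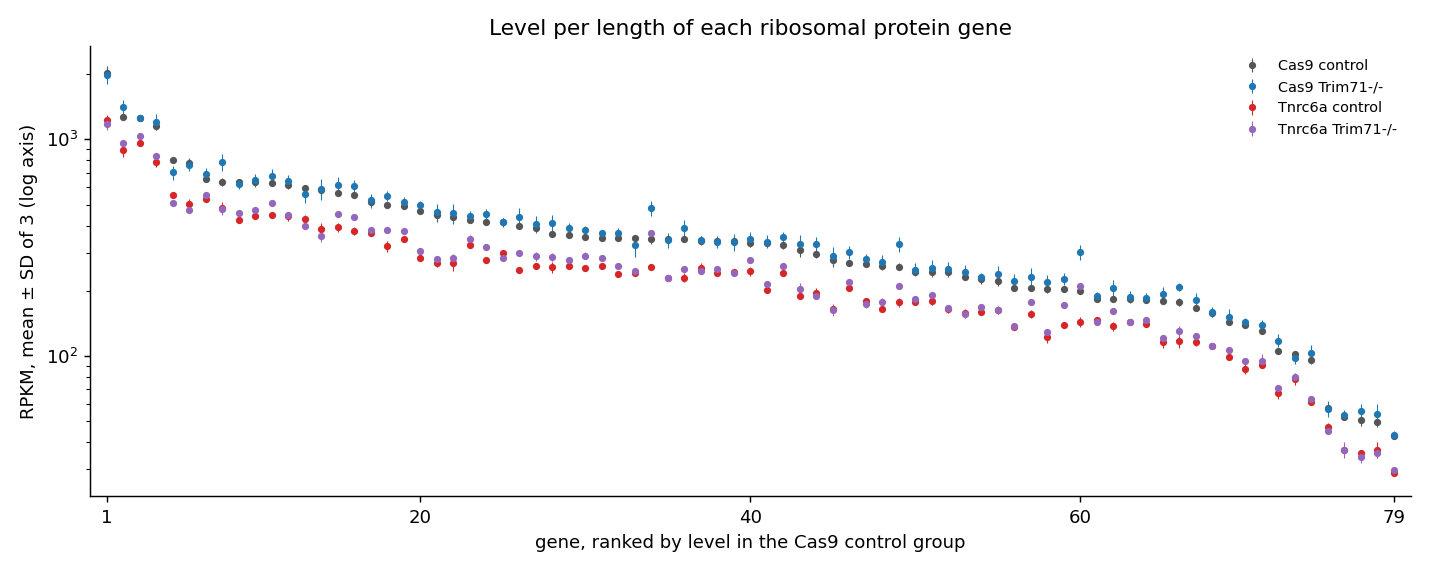
Mean deposited RPKM with SD of 3 libraries on a log axis for each of the 79 genes, by their rank in the Cas9 control group (x axis), in the 4 groups. Within each genotype the Tnrc6a mean (red, purple) lies below the Cas9 mean (grey, blue) at all 79 genes.

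Start windows are shown because a pyrimidine run at the start is the shared feature by which these mRNAs are usually recognised. The RefSeq promoter table (GRCm38.p6) held an entry for 57 of the 79 genes. The longest uninterrupted run of C or T was searched on the sense strand within 20 bases on either side of the annotated start, a base that need not be the one where transcription begins. A run of at least 8 was found in 26 of the 57, which is 45.6%, against 4300 of 27025 genes with an entry, or 15.9%. In 14 of them the run spanned the annotated start, and the share of all genes with such a run across the start was not computed. The windows below hold the 10 bases before the start and the 20 from it on, with the longest run in capitals where it lies in the window. Those of Rpl38, Rpl35, Rpl27a, Rps27, Rps6 and Rplp2 have runs across the start, those of Rpl15 and Rps10 have long runs in genes with shallow changes, and those of Rpl37a and Rpl41 have none that long in genes with the deepest changes.
Rpl38, chr11:114668570-114668599, plus strand: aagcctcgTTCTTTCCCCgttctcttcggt
Rpl35, chr2:39005112-39005141, minus strand: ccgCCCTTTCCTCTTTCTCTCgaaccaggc
Rpl27a, chr7:109519185-109519214, plus strand: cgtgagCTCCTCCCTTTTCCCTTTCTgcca
Rps27, chr3:90213629-90213658, minus strand: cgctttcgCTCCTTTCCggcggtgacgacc
Rps6, chr4:86857348-86857377, minus strand: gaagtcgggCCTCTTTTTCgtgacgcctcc
Rplp2, chr7:141447641-141447670, plus strand: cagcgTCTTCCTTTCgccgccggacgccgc
Rpl15, chr14:18270967-18270996, minus strand: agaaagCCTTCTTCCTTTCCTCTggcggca
Rps10, chr17:27635225-27635254, minus strand: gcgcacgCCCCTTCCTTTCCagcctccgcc
Rpl37a, chr1:72711250-72711279, plus strand: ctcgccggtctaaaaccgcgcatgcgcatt
Rpl41, chr10:128549149-128549178, minus strand: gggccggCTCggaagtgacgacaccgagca

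The first comparison asks how ribosomal protein mRNA differed between Tnrc6a and Cas9 overexpression. In control cells all 79 genes were lower with Tnrc6a, with a median log2 fold change of -0.52, a fall by 30.3%. The 79 genes together took 4.87%, 4.786% and 4.754% of all counts in the Cas9 control libraries and 3.899%, 3.769% and 3.621% in the Tnrc6a control libraries. The same held in Trim71-/- cells, where the shares were 4.798%, 4.842% and 5.351% with Cas9 and 3.902%, 3.927% and 3.96% with Tnrc6a. The Tnrc6a libraries were all below the Cas9 libraries in both genotypes. As summed CPM the level with Tnrc6a was 0.6976 of that with Cas9 in control cells and 0.708 in Trim71-/- cells. In bulk RNA fewer cells of a type and less RNA per cell cannot be told apart.

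By edgeR's quasi-likelihood test, with Benjamini-Hochberg adjustment over all genes, 79 of 79 were lower and 0 higher in control cells, where 33.1% of all genes tested were called lower and 30.4% higher. In Trim71-/- cells 79 of 79 were lower and 0 higher as well, against 30.9% lower and 32% higher among all genes. At an unadjusted p under 0.05 the count higher was also 0 in both comparisons, and it was 0 with limma-voom, DESeq2 and limma on RPKM. In all 79 the 3 Tnrc6a libraries lay below the 3 Cas9 libraries in either genotype, against 34.8% of all genes in control and 32.3% in Trim71-/- cells. The median over all genes was -0.02 in control and 0.02 in Trim71-/- cells, and 15.6% and 14.5% of all genes had a log2 fold change below the members' median. All 79 fell by at least 1.2-fold, and 22 in control and 26 in Trim71-/- cells by at least 1.5-fold. The 2 comparisons share no library, though all 12 libraries entered 1 fit.

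The choice among the scalings tried, all relative to a library's own counts, changed the size of these differences but not their direction. With library totals and no scaling factor, an alternative chosen after seeing the data, the median of all genes moved up by 0.17 for control and 0.15 for Trim71-/- cells, and the members' medians became -0.35 and -0.37. All 79 were still called lower in both, with a largest adjusted p of 0.00912 and 0.00623, a smallest fall of 0.13 in each, and medians relative to all genes of -0.50 and -0.54. Falls of single members given below are with trimmed-mean factors, and the smaller of them shrank by over 1.5 times with library totals, as from 0.40 to 0.23 for Rpl23 in control cells.

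**Figure D2:**
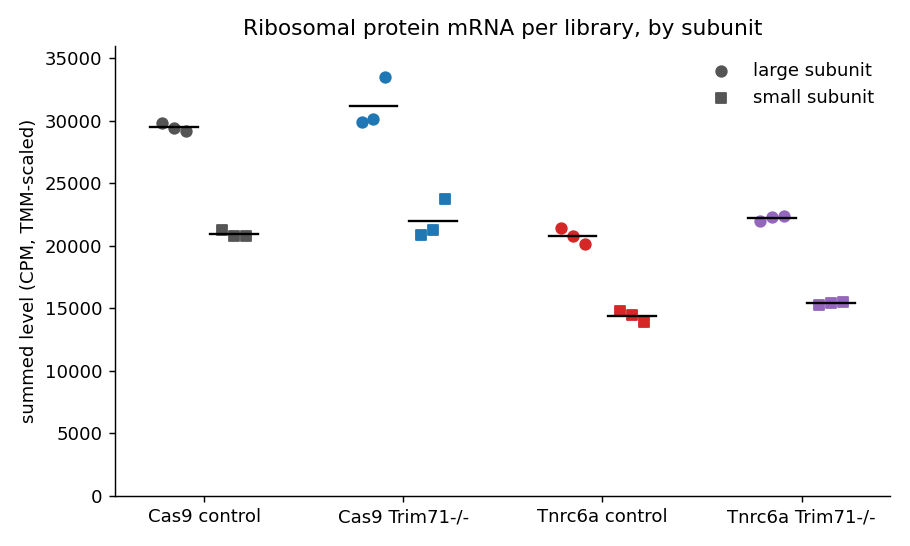
Summed CPM of the 46 large-subunit genes (circles) and the 33 small-subunit genes (squares) in each of the 12 libraries, with the group mean as a line. Both sums are lower in the 6 Tnrc6a libraries than in the 6 Cas9 libraries, and Cas9 Trim71-/- replicate 3 is the highest library for both.

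The mRNAs of both subunits were lower. The median log2 fold change with Tnrc6a was -0.54 for the small subunit and -0.51 for the large subunit in control cells, and -0.50 and -0.53 in Trim71-/- cells. The ratio of the small-subunit to the large-subunit sum ran from 0.7067 to 0.7142 in Cas9 control and from 0.6892 to 0.6936 in Tnrc6a control libraries. In Trim71-/- cells it ran from 0.6986 to 0.708 with Cas9 and from 0.6907 to 0.6932 with Tnrc6a. By the sums the small subunit was thus lower by slightly more in both genotypes, with no overlap of the ratios, while by the medians this order held in control cells and not in Trim71-/- cells.

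The largest fall in both genotypes was that of Rpl37a (chr1:72711290-72713813, GRCm38), a short zinc-binding protein of the large subunit. Its level was 413, 404.6 and 357.2 CPM in Cas9 control and 235.9, 232.3 and 224.7 CPM in Tnrc6a control libraries. In Trim71-/- cells it was 404.4, 370.6 and 451.8 CPM with Cas9 and 225.1, 218.6 and 247.2 CPM with Tnrc6a. The groups did not overlap, and the log2 fold changes were -0.76 ± 0.08 (SE, edgeR adjusted p = 5.48e-06) and -0.83 ± 0.08 (adjusted p = 2.79e-06). Rpl41, the shortest ribosomal protein, stood at 542.5, 549 and 482.3 CPM in Cas9 control against 325.7, 312.3 and 302 CPM in Tnrc6a control libraries, a log2 fold change of -0.74, and fell by 0.71 in Trim71-/- cells. Rpl36a, Rpl31 and Rps21 fell by 0.74, 0.72 and 0.72 in control cells, and Rpl38, Rpl36a and Rps29 by 0.79, 0.77 and 0.73 in Trim71-/- cells.

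The smallest falls were those of Rps15a in control cells, by 0.29, and of Rps19 and Rpl4 in Trim71-/- cells, by 0.28 and 0.29. Rps15a, a small-subunit protein, stood at 361.5, 360.9 and 361.4 CPM in Cas9 control and at 307.1, 295.6 and 281 CPM in Tnrc6a control libraries, so the groups did not overlap here either (adjusted p = 1.05e-07). Rpl4 lines the peptide tunnel. It stood at 2509, 2473 and 2624 CPM in Cas9 Trim71-/- and at 2076, 2122 and 2035 CPM in Tnrc6a Trim71-/- libraries (adjusted p = 4.67e-10). Rps19, the protein mutated most often in Diamond-Blackfan anaemia, was chosen after its value was seen, and so was Rpl19, which fell by 0.31 in control cells.

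**Figure D3:**
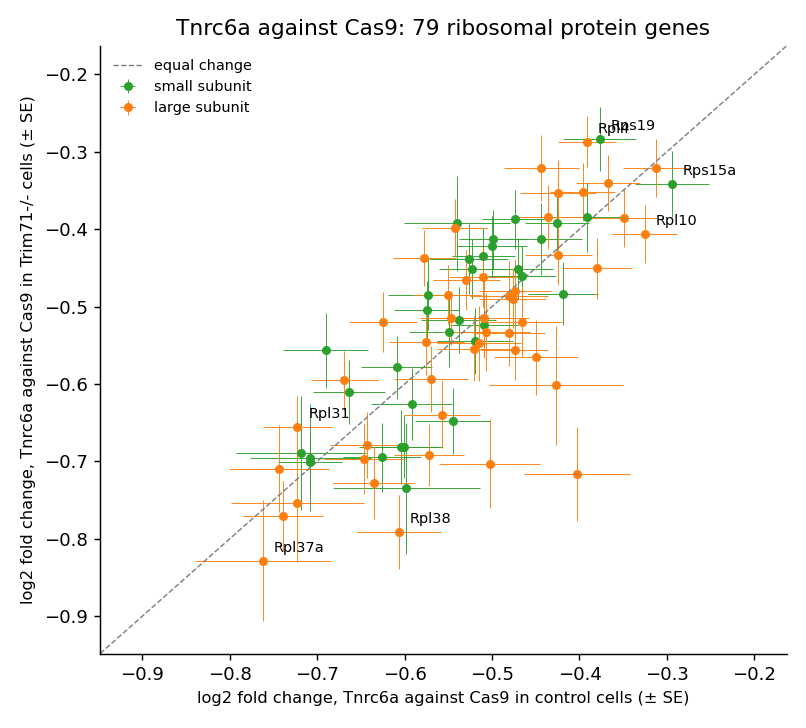
Log2 fold change of each of the 79 genes with Tnrc6a against Cas9 in control cells (x axis) and in Trim71-/- cells (y axis), with SE bars, green for the small and orange for the large subunit. All points lie below 0 on both axes, between -0.83 and -0.28, and they spread along the dashed line of equal change, with Rpl37a at the low end.

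The mRNAs of the P stalk, which calls elongation factors to the ribosome, fell like those of all 79 genes. Rplp1 was at 1027, 1080 and 938.7 CPM in Cas9 control and at 636.5, 628 and 581 CPM in Tnrc6a control libraries, a log2 fold change of -0.72 ± 0.08 (adjusted p = 8.97e-06), and it fell by 0.75 in Trim71-/- cells. Rplp0 fell by 0.53 in control and 0.47 in Trim71-/- cells, and Rplp2 by 0.51 and 0.52. The 5S particle of Rpl5 and Rpl11 is the part of the large subunit that, when left unassembled, binds Mdm2 and thereby stabilises p53. Rpl23 binds Mdm2 too. Rpl5 fell by 0.54 and 0.40, Rpl11 by 0.64 and 0.68, and Rpl23 by 0.40 and 0.35 in control and Trim71-/- cells.

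The mRNAs of 9 proteins around the exit of the peptide tunnel, where targeting and processing factors dock, fell with all the others. Their medians were -0.58 in control and -0.60 in Trim71-/- cells. Rpl22, an RNA-binding protein of this rim, fell by 0.67 and 0.60, and Rpl39 by 0.64 and 0.73. The mRNAs of 5 proteins of the decoding site and the mRNA path fell too, with medians of -0.53 and -0.45. Rps6, the small-subunit protein phosphorylated by S6 kinase, stood at 665.8, 651.1 and 654.4 CPM in Cas9 control and at 450.6, 449.2 and 423.8 CPM in Tnrc6a control libraries, a fall by 0.57, and it fell by 0.50 in Trim71-/- cells. Rpl3, next to the peptidyl transferase centre, fell by 0.55 and 0.52.

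Rps27a is made as a fusion with ubiquitin, and it fell by 0.44 in control and 0.41 in Trim71-/- cells, while Rps27, a zinc-binding protein, fell by 0.71 and 0.70. The 4 X-linked genes fell with the autosomal ones. Rpl10, which joins the large subunit late, fell by 0.33 and 0.41, Rps4x by 0.51 and 0.43, Rpl36a by 0.74 and 0.77 and Rpl39 by 0.64 and 0.73.

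The size of the fall varied among the genes by more than the error of a single gene. The SD over the 79 log2 fold changes was 0.11 in control and 0.13 in Trim71-/- cells, against a median SE of 0.04 in both. Across the 79 genes the log2 fold changes in the 2 genotypes had a Pearson r of 0.77 and a Spearman rho of 0.757. This is across genes, which are not independent replicates, and all genes of a comparison share the same 6 libraries and their scaling.

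Shorter coding sequences went with deeper falls. The 9 genes with up to 300 coding bases had a median log2 fold change of -0.64 in control and -0.71 in Trim71-/- cells, the 44 genes with over 300 and up to 600 bases one of -0.52 and -0.54, and the 24 longer genes one of -0.50 and -0.46. Across 77 genes r with log2 coding length was 0.424 (rho 0.411) in control and 0.646 (rho 0.64) in Trim71-/- cells. With log2 deposited gene length it was weaker across the 79 genes, at 0.225 (rho 0.216) and 0.364 (rho 0.31). Other protein-coding genes moved with length too: the median was -0.30 for 304 genes up to 300 bases, -0.12 for 1612 genes with over 300 and up to 600 bases and 0.11 for 3247 genes over 2400 bases in control cells. In each length class with 9 or more members their median lay below that of the other genes. The part of transcript length in the members' fall was not tested.

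**Figure D4:**
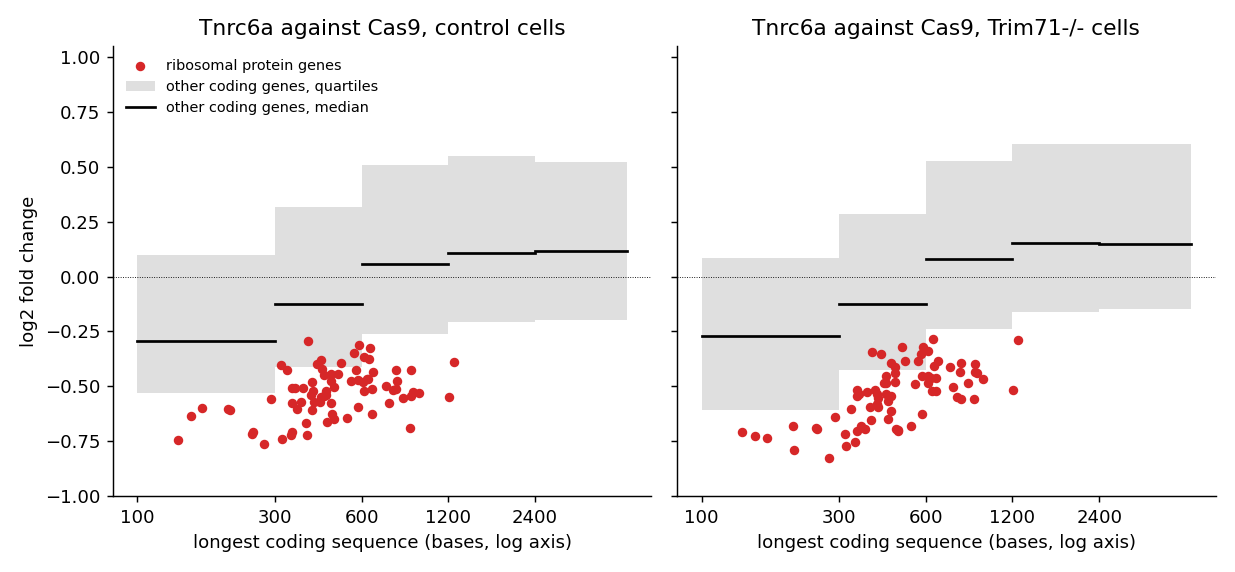
Log2 fold change with Tnrc6a against Cas9 by longest annotated coding sequence (log axis) for the 77 protein-coding members (red points) and for other protein-coding genes in 5 length classes (black line at the median, grey for the quartiles), in control cells (left) and Trim71-/- cells (right). The red points lie below the black line of their class in both genotypes, and they are lowest at the shortest lengths.

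Within the same level class the members' median was lower than that of other protein-coding genes. Among genes above 500 CPM the median in control cells was -0.52 for 36 members and -0.35 for 172 other genes, and between 100 and 500 CPM it was -0.55 for 40 members and -0.15 for 2022 others. In Trim71-/- cells the values were -0.50 and -0.31 above 500 CPM, and -0.57 and -0.14 between 100 and 500 CPM. Other genes moved with level too: in control cells their median was 0.77 up to 1 CPM and 0.32 between 1 and 10 CPM. Across the 79 genes, r between the log2 fold change and the log2 RPKM level was -0.128 in control and 0.047 in Trim71-/- cells. These classes were not matched for coding length, and the part of expression level in the members' fall was not tested.

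Members with and without a run of at least 8 had similar medians. In control cells the median log2 fold change was -0.54 for the 26 genes with a run of at least 8 and -0.51 for the 31 without, and in Trim71-/- cells it was -0.53 and -0.48. Rpl37a and Rpl41, whose windows above hold no such run, fell more than Rpl15 and Rps10, whose runs span the start and which fell by 0.37 and 0.39 in control cells. Rps27 and Rpl38, whose runs also span the start, fell by 0.71 and 0.61 there. Runs across the start were not set apart from other runs in these medians, and an annotated start can be off. The part of the TOP motif in the falls was not tested.

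Genes of the same pathway outside the symbol rule were mostly lower too, with medians nearer 0 in the longer lists. Fau encodes a ribosomal protein fused to a ubiquitin-like protein, and it fell by 0.49 in control and by 0.42 in Trim71-/- cells. Of 22 other mRNAs reported to carry TOP motifs, 20 fell and 1 rose in each genotype, with medians of -0.37 and -0.31. Among them Pabpc4, a poly(A)-binding protein, fell by 0.91 and 0.87, Nap1l1, a histone chaperone, by 0.65 and 0.56, Eef1g, an elongation factor subunit, by 0.58 and 0.50, and Btf3, a part of the nascent chain complex, by 0.53 and 0.57. Eif4a2, an RNA helicase of translation initiation, was the 1 that rose, by 0.57 and 0.60, and Snhg1, a noncoding host of small nucleolar RNAs, was the 1 not called.

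Of 34 genes of ribosome biogenesis and RNA polymerase I, 30 fell and 1 rose in control cells, and 28 fell and 2 rose in Trim71-/- cells, with medians of -0.30 in both. Nhp2, Dkc1 and Nop10, which belong to the particle that makes pseudouridine in ribosomal RNA, fell by 0.92, 0.81 and 0.73 in control and by 0.82, 0.57 and 0.91 in Trim71-/- cells. Wdr12, a large-subunit assembly factor, fell by 0.63 and 0.46, and Nop14, a small-subunit assembly factor, rose by 0.18 and 0.13. Of 78 mitochondrial ribosomal protein genes, 58 fell and 4 rose in control and 62 fell and 2 rose in Trim71-/- cells, with medians of -0.35 and -0.38. With library totals and no scaling factor the risen counts among these 78 became 15 and 12. Mrpl34 fell by 0.84 and 0.82, and Mrpl42 by 0.66 and 1.03.

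Regulators of TOP mRNAs and mTOR did not move together. Of 16 genes, 9 fell and 3 rose in each genotype, where 33.1% of all genes were called lower and 30.4% higher in control and 30.9% and 32% in Trim71-/- cells. With library totals 3 fell and 5 rose in control cells. Ddit4, an inhibitor of mTOR complex activity that responds to stress, rose by 2.18 and 2.196 on the log2 scale, Sesn2, another such inhibitor, by 0.51 and 0.87, and Tsc1 by 0.45 and 0.35. Eif4ebp2, a repressor of cap-dependent initiation, fell by 0.63 and 0.51, and Larp1 fell by 0.19 and 0.29. Tsc1 and Larp1 were chosen after their values were seen.

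Reads of near-identical copies limit what single genes can show. The table held 213 rows named as pseudogenes of 56 members, with 20.78% as many counts as the members. Of these rows 187 fell in control and 185 in Trim71-/- cells by edgeR's adjusted p, and the other 26 and 28 were not called, with medians of -0.50 and -0.52. When their counts were added to their parent genes, all 79 members were still called lower in both genotypes. Whether the authors' counting split reads between copies was not tested.

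Markers of other cell states moved with Tnrc6a. The summed level of 5 markers of 2-cell-like cells was 12.67 to 15.13 CPM in Cas9 control and 312.1 to 320.4 CPM in Tnrc6a control libraries, and 0.7837 to 1.409 against 115.5 to 124.4 CPM in Trim71-/- cells. Of 5 trophoblast markers 4 were listed, at 20.9 to 23.93 against 203.1 to 239.4 CPM in control and 22.61 to 27.34 against 104.7 to 107.2 CPM in Trim71-/- cells. The 6 endoderm markers summed to 72.36 to 77.41 against 168.9 to 174.6 CPM in control and 10.1 to 12.45 against 20.69 to 24.56 CPM in Trim71-/- cells. All 6 rose in control, while 4 rose and 1 fell in Trim71-/- cells. Of 8 fibroblast markers 4 were listed, at 14.67 to 19.24 against 25.95 to 28.56 CPM in control and 18.65 to 19.96 against 27.16 to 30.39 CPM in Trim71-/- cells, and 3 and 4 of them rose. The 4 neural markers summed to 128.8 to 131.4 against 141 to 144 CPM in control and 151.5 to 168.3 against 183.1 to 188.9 CPM in Trim71-/- cells, where 1 rose and 2 fell in control and 2 rose and 2 fell in Trim71-/- cells. In each genotype the sums of all these lists were higher with Tnrc6a, with no overlap. Their part in the falls of ribosomal protein mRNA was not tested.

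The second comparison asks how the Trim71-/- label moved these genes. The differences were small: with Cas9 27 of 79 genes were higher and 1 was lower, where 17.1% of all genes were called higher and 19.1% lower, and the members' median log2 fold change was 0.07 against -0.01 for all genes. With Tnrc6a 30 were higher and 1 was lower, against 20% higher and 19% lower among all genes, with medians of 0.08 and 0.00. The summed level was 1.054 times that of control cells with Cas9 and 1.07 times with Tnrc6a. With Cas9 the sums overlapped, at 49930 to 51100 CPM in control and 50770 to 57270 in Trim71-/- libraries, the highest being replicate 3. With Tnrc6a they did not, at 34080 to 36200 against 37250 to 37940 CPM. A rise of at least 1.2-fold was reached by 4 genes in each comparison, among them Rpl13, Rps12 and Rpl36 with Cas9 and Rpl13, Rpl5 and Rpsa with Tnrc6a. The 3 Trim71-/- libraries lay above the 3 control libraries in 21 genes with Cas9 and 40 with Tnrc6a, against 20.7% and 25.5% of all genes, and below them in 1 and 2 genes, against 22.6% and 23.9%. Those below were Rplp0 in both and Rpl13a, chosen after its value was seen, with Tnrc6a. The 2 comparisons share no library, though all 12 libraries entered 1 fit. In both, 20 genes were higher, and the share of all genes higher in both was not computed.

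These counts rested in part on single libraries and on scaling. Without Cas9 Trim71-/- replicate 3, the highest library, 12 genes were higher and 5 lower with Cas9, and the median was 0.02. The 5 lower were then Rps14, Rps19, Rplp0, Rpl13a and Rpl24, named after their values were seen. With Tnrc6a, 16 were higher without Tnrc6a control replicate 2, 18 without Tnrc6a control replicate 3, 19 without Tnrc6a Trim71-/- replicate 2 and 20 without Tnrc6a Trim71-/- replicate 3. The split with Tnrc6a was 20 higher and 4 lower with relative log expression factors, 18 and 4 with DESeq2 and 17 and 4 with library totals. In the main fit 17.1% of all genes were called higher with Cas9 and 20% with Tnrc6a, and the lowest of these counts lie near those shares.

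The largest rise in both comparisons was that of Rpl13 (chr8:123102350-123105244), a large-subunit protein on chromosome 8. It stood at 521.8, 528.3 and 497.7 CPM in Cas9 control and at 725.4, 771.5 and 849.5 CPM in Cas9 Trim71-/- libraries, and at 392.1, 375.2 and 353.8 against 555.5, 524.8 and 555.6 CPM with Tnrc6a. Neither pair of groups overlapped. The log2 fold changes were 0.60 ± 0.045 with Cas9 (edgeR adjusted p = 1.98e-12) and 0.55 ± 0.045 with Tnrc6a (adjusted p = 1.64e-11).

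Chromosome 8 as a whole moved in the same way. The median log2 fold change of its 662 other genes with a mean of at least 5 CPM was 0.49 with Cas9 and 0.51 with Tnrc6a, against -0.01 and 0.00 for 11757 such genes elsewhere. Fau, on chromosome 19, was at -0.05 and 0.02 and was not called. A change of gene dosage and an effect of the label on these genes cannot be told apart here. Off chromosome 8, 25 of 77 members were higher and 1 lower with Cas9 (median 0.07), and 28 higher and 1 lower with Tnrc6a (median 0.07). Of the 11757 other genes there with at least 5 CPM, 2249 were higher and 2883 lower with Cas9. With Tnrc6a 2655 of them were higher and 2742 lower.

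**Figure D5:**
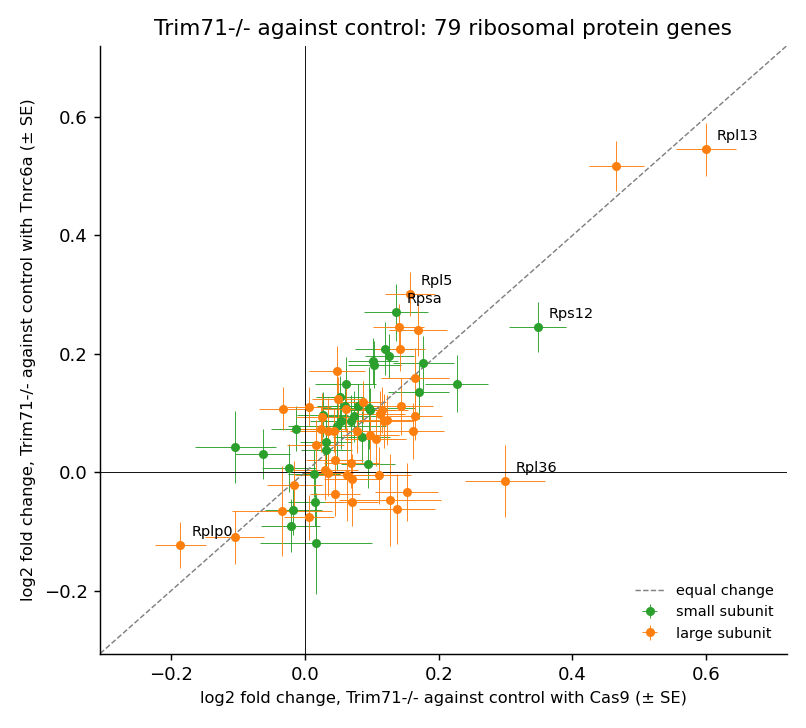
Log2 fold change of each of the 79 genes in Trim71-/- against control cells with Cas9 (x axis) and with Tnrc6a (y axis), with SE bars, green for the small and orange for the large subunit. Rpl13 lies farthest to the upper right, Rplp0 lies below 0 on both axes, and Rpl36 lies at 0.30 on the x axis and at -0.01 on the y axis.

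Apart from chromosome 8, Rps12, a small-subunit protein, was the member that rose most with Cas9. It stood at 545.6, 517.4 and 506.9 CPM in Cas9 control and at 644.1, 628.3 and 725.9 CPM in Cas9 Trim71-/- libraries, with no overlap, a log2 fold change of 0.35 ± 0.04 (edgeR adjusted p = 2.17e-08). With Tnrc6a it rose by 0.25 (adjusted p = 1.47e-05). Rps28 rose by 0.23 and Rps10 by 0.18 with Cas9. The rise of Rps10 was 0.09 without Cas9 Trim71-/- replicate 3.

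With Tnrc6a the largest rise off chromosome 8 was that of Rpl5, which stood at 549.2, 545.2 and 543.8 CPM in Tnrc6a control and at 657.8, 687.8 and 673.2 CPM in Tnrc6a Trim71-/- libraries, a log2 fold change of 0.30 ± 0.04 (adjusted p = 6.44e-09). With Cas9 it rose by 0.16, and by 0.10 without Cas9 Trim71-/- replicate 3. Rpsa, the laminin-receptor protein of the small subunit, rose by 0.27 with Tnrc6a and Rpl14 by 0.25.

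Rplp0 was the 1 member called lower in both. It stood at 1359, 1308 and 1321 CPM in Cas9 control and at 1100, 1141 and 1264 CPM in Cas9 Trim71-/- libraries, and at 957.3, 902.7 and 904.1 against 859.9, 836.4 and 842.1 CPM with Tnrc6a. Neither pair of groups overlapped, and the log2 fold changes were -0.19 ± 0.04 (adjusted p = 0.000119) and -0.12 ± 0.04 (adjusted p = 0.00903). With limma on RPKM the second had an adjusted p of 0.0636. The other stalk mRNAs did not follow it: Rplp2 was called higher, at 0.16 in both, and Rplp1 was at -0.03 and -0.07 and not called. The call of Rplp2 was lost without Cas9 control replicate 2 (adjusted p = 0.0617) or Cas9 Trim71-/- replicate 3 (0.0679) with Cas9. With Tnrc6a it was lost without Tnrc6a control replicate 2 (0.09) or 3 (0.0744) and without Tnrc6a Trim71-/- replicate 2 (0.129) or 3 (0.0583). Limma-voom gave 0.0793 and 0.0792.

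By subunit, 10 of 33 small-subunit genes were higher with Cas9 and 15 with Tnrc6a, and the others were not called. Among large-subunit genes 17 of 46 were higher and 1 lower with Cas9 and 15 higher and 1 lower with Tnrc6a. The shares over all genes were 17.1% higher and 19.1% lower with Cas9 and 20% and 19% with Tnrc6a, and several of the counts with a library left out lie near the shares higher. Without Cas9 Trim71-/- replicate 3 the counts with Cas9 were 4 higher and 2 lower for the small subunit and 8 higher and 3 lower for the large, and without Cas9 control replicate 2 the small-subunit count higher was 5. With Tnrc6a the small-subunit count higher was 8 without Tnrc6a control replicate 2 and 9 without Tnrc6a Trim71-/- replicate 3. The large-subunit count higher was 8 without Tnrc6a control replicate 2 or 3 or Tnrc6a Trim71-/- replicate 2. Rps6 rose by 0.13 with Cas9 and 0.20 with Tnrc6a, and without Cas9 Trim71-/- replicate 3 the former was 0.077 and not called (adjusted p = 0.0802).

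Some paralogs outside the rule also changed between genotypes. Rpl39l, a copy of Rpl39 known from male germ cells, fell by 1.71 with Cas9 and 1.95 with Tnrc6a in Trim71-/- against control cells, from a mean of 72.5 to 22.2 CPM and from 35.4 to 9.12 CPM. Rpl39 itself was higher by 0.16 with Cas9, where the call was lost without Cas9 Trim71-/- replicate 3 (adjusted p = 0.0622), and was at 0.07 and not called with Tnrc6a. Rpl22l1, a copy of Rpl22 whose mRNA Rpl22 protein is known to repress, rose by 0.62 and 0.51, and Rpl10l, a germ-line copy of Rpl10, rose by 0.72 and 0.67. Of the 9 paralogs 4 rose and 1 fell with Cas9 and 5 rose and 2 fell with Tnrc6a, where 1 fell without Tnrc6a Trim71-/- replicate 1. With Tnrc6a against Cas9, 8 of the 9 fell in each genotype and the other was not called, with medians of -0.59 and -0.61. How far their reads can be told from those of the parent genes was not tested.

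In the genotype comparisons the other TOP mRNAs had medians of 0.07 with Cas9 and 0.09 with Tnrc6a, against 0.07 and 0.08 for the members. Biogenesis genes had medians of 0.02 and 0.06 and mitochondrial ribosomal protein genes of 0.05 and 0.02, and the calls in these lists were mixed. Of the 22 TOP mRNAs 10 rose and 3 fell with Cas9 and 11 rose and 1 fell with Tnrc6a, of the 34 biogenesis genes 11 rose and 9 fell and 11 rose and 8 fell, and of the 78 mitochondrial ribosomal protein genes 19 rose and 7 fell and 16 rose and 13 fell. Over all genes 17.1% were called higher and 19.1% lower with Cas9, and 20% and 19% with Tnrc6a, and the mitochondrial counts with Tnrc6a lie near these shares. Counts lower moved by over 1.5 times with single libraries left out: leaving out replicate 1 of Cas9 control, or 1 or 2 of Cas9 Trim71-/-, the counts lower with Cas9 were 1 in each case for TOP mRNAs, 5, 4 and 5 for biogenesis genes, and 1, 1 and 3 for mitochondrial genes. Without Cas9 control replicate 2 they were 1 for TOP mRNAs and 4 for mitochondrial genes. With Tnrc6a the biogenesis count lower was 5 without Tnrc6a Trim71-/- replicate 1 or 3, and the mitochondrial count lower was 7 without replicate 1. The mitochondrial count higher with Tnrc6a was 10, 6 and 7 without Tnrc6a control replicates 1, 2 and 3, and 6 and 5 without Tnrc6a Trim71-/- replicates 2 and 3.

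The interaction asks whether the difference made by Tnrc6a was the same in both genotypes. By edgeR 0 members were higher and 1 was lower, where 4.68% of all genes were called higher and 2.25% lower. The members' median was 0.01 on the log2 scale. At an unadjusted p under 0.05, 4 members were higher and 4 lower. DESeq2 called 0 higher and 1 lower, and limma-voom called 1 higher, Rpl5 at 0.15, and 0 lower. Without Cas9 Trim71-/- replicate 3, 6 were called higher, and 2 were called lower without Cas9 Trim71-/- replicate 2, Tnrc6a control replicate 3 or Tnrc6a Trim71-/- replicate 2.

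The 1 member called was Rpl36 (chr17:56613416-56614243), a short large-subunit protein. It stood at 247.4, 252.4 and 233.1 CPM in Cas9 control and at 298.1, 275.5 and 328.1 CPM in Cas9 Trim71-/- libraries, but at 194.3, 188.3 and 171.6 CPM in Tnrc6a control and 170.6, 187.3 and 190.7 CPM in Tnrc6a Trim71-/- libraries. With Cas9 the Trim71-/- libraries were all above the control libraries, and with Tnrc6a the groups overlapped. The log2 fold change between genotypes was 0.30 ± 0.06 with Cas9 (edgeR adjusted p = 0.000718) and -0.01 ± 0.06 with Tnrc6a (adjusted p = 0.882), and their difference was -0.31 ± 0.09 (adjusted p = 0.0343). That call was lost without Cas9 control replicate 1 (adjusted p = 0.0656), without Cas9 control replicate 3 (0.0675) and without Cas9 Trim71-/- replicate 1 (0.0936), as well as with limma-voom (0.0675) and with limma on RPKM (0.0895). With the replicate number as a block the adjusted p was 0.0534.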

How the data were processed

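Total RNA libraries (stranded TruSeq kit, per the labels' protocols) were sequenced from 12 wells. Per the submitters' processing notes, bcl2fastq 2.20 and STAR 2.7.3a were used with GRCm38 (mm10). How reads were assigned to genes (annotation, strand option) is not given in the sources used here. Per gene, the authors deposited raw counts, which were tested, and RPKM values, which served for levels and for 1 alternative. Within each library the deposited RPKM equalled the count divided by the deposited gene length and by a constant of 0.9352 to 1.0778 times the library's total, close to the TMM factor computed here.

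Tests used edgeR 4.0.16 under R 4.3.3 (filterByExpr by group, TMM factors, glmQLFit with robust estimation, 1 mean per group over all 12 libraries, two-sided glmQLFTest). Benjamini-Hochberg adjustment ran over 20486 genes, and a gene with an adjusted p under 0.05 is called higher or lower, or said to rise or fall. Levels are CPM with TMM factors. Coordinates and coding lengths came from GENCODE M21 (GRCm38), and start windows from RefSeq (GRCm38.p6). Group labels took 3 wells each. No list was tested as a set: lists are described by counts and medians.

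The members and all gene lists were chosen with earlier results of these data known. Members named are the 6 largest rises and falls per comparison among those called (4 for the interaction), the 6 highest and 6 lowest by RPKM, the stalk, Rpl5, Rpl11, Rpl23, Rps6, Rpl22, Rpl3, Rps27, Rps27a and those on chromosomes X and 8, and from other lists up to 4 genes with the largest changes. Some genes of this rule are not reported here by name. Rpl13a, Rpl15, Rpl19, Rps19, the genes of the start windows and those that were the exception in their list were named after their values were seen. Alternatives used limma 3.58.1 (voom, and log2(RPKM + 1)), DESeq2 1.42.0, other scaling factors and filters, a block for the replicate number, fits of the 2 groups compared, and each library left out. Replicate numbers did not pair the wells: over 18 same-numbered pairs the correlation of deviations ran from -0.053 to 0.025.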

Additional observations from a re-analysis of the deposited data

Results flagged for a closer look

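The genotype difference of Rpl36 was not the same with Cas9 and with Tnrc6a: the interaction was -0.31 on the log2 scale (edgeR adjusted p = 0.0343), from 0.30 with Cas9 and -0.01 with Tnrc6a. It was marked because a test of the difference itself passed the threshold, the 1 such case among 79 genes. Among all genes, 4.68% were called higher and 2.25% lower for the interaction, so 1 member called is no more than that share. All 3 Cas9 Trim71-/- libraries were above all 3 Cas9 control libraries, and with Tnrc6a the libraries overlapped. The adjusted p ran from 0.000818 to 0.0936 over the alternatives and libraries left out.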

How the results depend on the processing

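The counts of 79 members lower and 0 higher with Tnrc6a held under every alternative run in both genotypes, with 77 of 77 when the 2 annotated pseudogenes were left out. The medians were -0.53 to -0.50 in control and -0.55 to -0.47 in Trim71-/- cells with each library left out in turn, and with library totals they moved to -0.35 and -0.37. In Trim71-/- against control cells with Cas9, the count higher (27) was 14 with limma on log2(RPKM + 1) and 12 to 33 with a library left out, and the count lower (1) was 2 with library totals, 2 with upper-quartile factors and 1 to 5 with a library left out. With Tnrc6a, the count higher (30) was 18 with DESeq2, 17 with library totals and 16 to 27 with a library left out. The lowest of these counts higher lie near the shares of all genes in the main fit, 17.1% with Cas9 and 20% with Tnrc6a. The count lower (1) was 2 with at least 1 CPM in 6 libraries and with upper-quartile factors, 4 with DESeq2, library totals, relative log expression factors or the 2 groups only, 0 with limma on RPKM, and 1 to 2 with a library left out. For the interaction, the count higher (0) was 1 with limma-voom and 0 to 6 with a library left out, and the count lower (1) was 0 with limma on RPKM, limma-voom and the replicate block and 0 to 2 with a library left out. With the replicate block the adjusted p of Rpl36 was 0.0534, and the counts higher were 25 and 28. No library correlated best with its own number in every other group, and 0 of 18 same-numbered pairs had a correlation over 0.1, so the numbers were not taken to pair the wells. Rplp1 with Cas9 (-0.03) ran from -0.1142 to 0.0123 with a library left out and was above 0 when replicate 2 of Cas9 control, or 1 or 2 of Cas9 Trim71-/-, was left out (0.0123, 0.0047 and 0.0037), and Rps27a (0.05) ran from -0.0217, without Cas9 Trim71-/- replicate 3, to 0.0992, none of them called. Of 1962 recomputed values of named members, 1899 kept direction and side of the threshold, 54 lost the call, 5 gained one and 4 changed sign. These values pool all comparisons, and every change was in the genotype comparisons or the interaction, none with Tnrc6a against Cas9. Members named only for their level were not recomputed between genotypes, and for the interaction only Rpl36 was. The causes were not tested. With at least 974 counts per member and library, depth limited no call of the fall with Tnrc6a. The medians of 0.07 and 0.08 between genotypes compare with an SD of 0.0642 between libraries for the members' median log2 CPM, pooled over groups. With Cas9 these library medians overlapped, at 8.9854 to 9.0462 in control and 8.9973 to 9.2129 in Trim71-/- libraries. With Tnrc6a they did not, at 8.436 to 8.5502 against 8.6284 to 8.6438.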
